A study of Mus musculus with 9 samples.

Results

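The subject here is the response of wild-type mouse kidney cortex to 5 days of ureteral obstruction, described mainly through genes outside the collagens and the standard injury markers. It was read from 4 of the 9 arrays of the series, taken by their titles: 2 arrays of wild-type obstructed kidney and 2 arrays of wild-type healthy kidney. The study tied the right ureter of wild-type and Notch3 knockout mice, aged 12 to 16 weeks and matched for gender, and collected both kidneys for cortical RNA after 5 days. This operation is called unilateral ureteral obstruction (UUO), and the untouched left kidneys were taken for comparison. Each sample was hybridised to its own one-colour array. The groups used for the comparison are wild-type UUO (2 arrays, wild-type background, ureter ligated for 5 days) and wild-type healthy (2 arrays, wild-type background, unligated kidney). The Notch3-/- UUO (3 arrays, ligated for 5 days) and Notch3-/- healthy (2 arrays) samples entered the statistical model only, where they add to the estimate of the spread between arrays. The labels give no strain, do not state whether animals were pooled, and do not say which healthy and obstructed kidneys came from the same mouse, so the p-values measure the spread between these arrays. In such bulk RNA, fewer cells of a type and less RNA per cell cannot be told apart.

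The nephron filters blood and then recovers nearly all of the filtrate through a chain of specialised epithelial segments, each with its own transporters. The proximal tubule, which makes up most of the cortex, recovers sugar, amino acids and phosphate, makes glucose, degrades amino acids and clears drugs, and it runs on mitochondrial respiration. A blocked ureter raises pressure in the tubules, and the obstructed kidney is a standard model of tubular injury, inflammation and fibrosis.

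Levels are given as log2 of the processed signal minus the 75th percentile of that array, so a level of 0 is the signal of a spot at the 75th percentile, and levels of different probes are not comparable with each other. Between 65.3 and 71.4% of the 43020 spots were well above background on the 4 wild-type arrays, and no spot was saturated. Of 23877 genes and unnamed transcripts tested with limma, 3372 rose and 2806 fell in obstructed kidney at an adjusted p under 0.05, which is 14.1% and 11.8% of those tested and 25.9% in either direction. The median log2 change over all genes was 0.04. Genes that rose had a median log2 change of 1.47 and genes that fell a median of -1.04, and 380 rises and 103 falls were larger than 3 on the log2 scale. The arrays of the 2 groups did not overlap for 64.6% of all genes, so a lack of overlap is common here and each such statement below is a description. The counts depended on single arrays: 4730 genes were called without healthy replicate 1, 4404 without healthy replicate 2, 1285 without UUO replicate 1 and 2204 without UUO replicate 2. Both UUO arrays lay on 1 slide and the healthy arrays on 2 others, and with the slide as a random block 1699 genes rose and 698 fell. No slide held wild-type arrays of both groups, so slide and obstruction cannot be told apart in this comparison. A random block does not remove a slide difference here. Ranges given below for a gene list "with 1 array left out" are the lowest and highest counts over the 4 fits that each leave out 1 wild-type array. Tallies of named genes that kept a call are for genes chosen partly by these same values, and do not stand for all called genes.

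Healthy replicate 1 stood apart from healthy replicate 2 in genes of tissues around the cortex. Ucp1, the uncoupling protein of brown fat, had levels of 5.39 and -5.64 on healthy replicates 1 and 2 and 1.74 and 0.97 on UUO replicates 1 and 2. The healthy arrays lay on either side of both UUO arrays for this gene, and the groups overlapped. The summed signal of the 11 adipocyte markers, in units of the 75th percentile, was 163 on healthy replicate 1 and 14.9 on healthy replicate 2, against 47 and 39.7 on the UUO arrays. The 10 brown fat genes, listed after these values were seen, summed to 85 and 11.7 on the healthy arrays and 15.7 and 11.2 on the UUO arrays. Most of the sum on healthy replicate 2 came from Cox7a1 and Ppargc1a, with levels of 2.90 and 1.93 there. These and Zic1 were higher on healthy replicate 2 than on both UUO arrays, and all other members were lower. Cidea, for example, had levels of 3.80 and -2.84 on healthy replicates 1 and 2 and 2.19 and 1.05 on UUO replicates 1 and 2. By summed signal, healthy replicate 1 was the highest of the 4 arrays for both fat lists, and healthy replicate 2 the lowest for the adipocyte list. Markers of the urothelium, the lining of the renal pelvis and ureter, summed to 16.9 and 8.58 on the healthy arrays and 17.8 and 16.6 on the UUO arrays. Trp63, with levels of 3.19 and 2.87 in healthy and 2.10 and 2.20 in UUO kidneys, made up most of the healthy replicate 2 sum. Every other urothelium marker was lowest on healthy replicate 2, often by more than the sums show. Upk1b, for example, had levels of -1.93 and -5.14 in healthy and -1.68 and -2.13 in UUO kidneys. Inner medulla markers summed to 98.2 and 32.4 on the healthy arrays and 26.3 and 31.1 on the UUO arrays, led by the aldose reductase Akr1b3 with levels of 5.82 and 2.80 on healthy replicates 1 and 2 and 3.18 and 3.33 on UUO replicates 1 and 2. All 11 adipocyte and 10 brown fat markers were well above background on healthy replicate 1, and all 10 urothelium markers were on each of the 4 arrays. Of the 10 adrenal cortex markers, 5 were well above background on each healthy array, 8 on UUO replicate 1 and 6 on UUO replicate 2, and Cyp11b2 and Cyp11a1 on none. Among them the steroid enzyme Hsd3b1 was well above background on UUO replicate 1 alone, with levels of -8.60 and -7.92 on healthy replicates 1 and 2 and -2.34 and -8.01 on UUO replicates 1 and 2. The 7 measured red blood cell genes summed to 83.5 and 85.6 on the healthy arrays and 14.5 and 24 on the UUO arrays. Of the 6 tested, 5 fell and Epb42 rose by 1.83, and with 1 array left out 0 to 1 fell. The part of these tissues in the results below was not tested, and list counts are also given with 1 array left out.

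**Figure D1:**
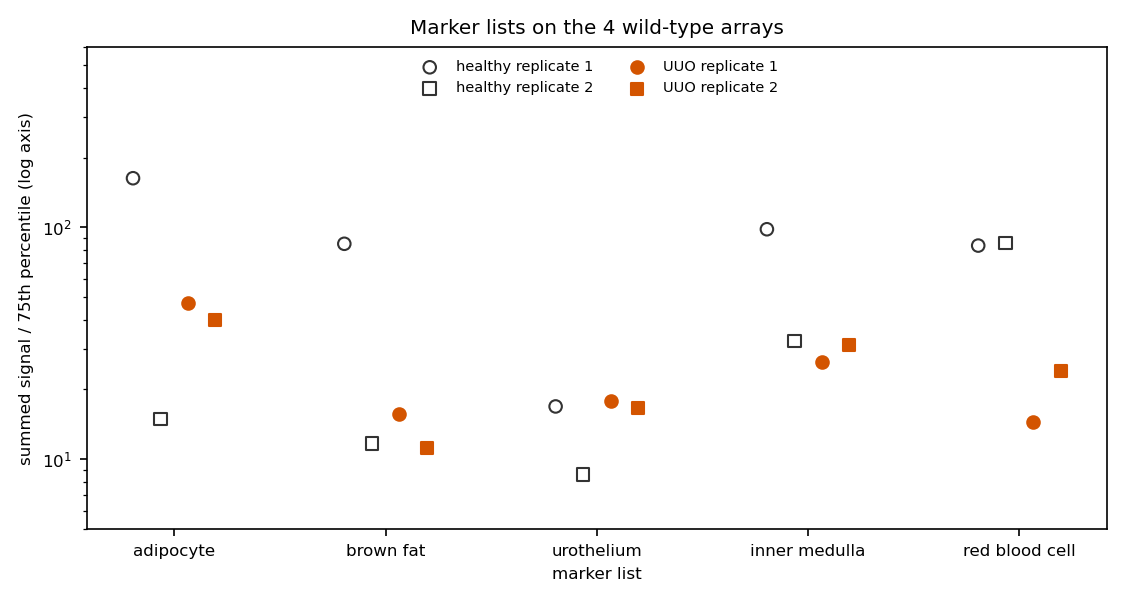
Summed signal of 5 marker lists on the 4 wild-type arrays (vertical axis, log scale, in units of the array's 75th percentile; 1 point per array). Healthy replicate 1 is the highest point for adipocyte (163), brown fat (85) and inner medulla (98.2) lists, while the red blood cell list is lower on both UUO arrays (14.5 and 24).

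The largest rises outside the standard markers included genes of squamous epithelium, neutrophil attraction and antimicrobial defence. A number in brackets after a gene is its log2 change, UUO minus healthy, unless marked otherwise. Il1f6, which encodes the cytokine interleukin-36 alpha, had levels of -8.60 and -7.95 in healthy and 1.20 and 1.04 in UUO kidneys. Both healthy arrays were not well above background, both UUO arrays were bright, and the rise was at least 141-fold (fitted log2 change 9.40 ± 0.70 (SE), adjusted p = 0.000936). Such "at least" folds set the mean of the bright group against the mean, over the dim group's arrays, of the lowest signal that counted as well above background there or the probe's own signal if higher. By the same bound Sprr2f, a small proline-rich protein of cornified squamous epithelium, rose at least 211-fold and Lyz2, the lysozyme of macrophages and neutrophils, at least 96.6-fold. Its relative Sprr2g rose as well, with a log2 change of 6.45, although probes of such near-identical families may share signal. Among the neutrophil-attracting chemokines, Cxcl5 rose at least 40.8-fold and Cxcl2 at least 16.2-fold, and Cxcl1 showed levels of -4.07 and -4.52 in healthy and 2.46 and 1.43 in UUO kidneys. Each UUO array was far above each healthy array for Cxcl1 (log2 change 6.24 ± 0.53 (SE), adjusted p = 0.00118). The mucosal chemokine Cxcl17 rose at least 54.5-fold. Serpina10, an inhibitor that acts on clotting factor Xa together with protein Z, had levels of -2.55 and -2.56 in healthy and 4.27 and 4.16 in UUO kidneys. Its replicates differed by 0.0115 and 0.108 within the groups (log2 change 6.77 ± 0.33 (SE), adjusted p = 0.000476). Aoc1, the diamine oxidase that degrades histamine and putrescine, had levels of -1.05 and -1.54 in healthy and 4.99 and 4.97 in UUO kidneys, again with the groups far apart (log2 change 6.28 ± 0.32 (SE), adjusted p = 0.000499). Defb36, a beta-defensin, rose by 5.93 on the log2 scale and the collectin Sftpd at least 28.4-fold. Il6 had levels of -8.59 and -7.92 in healthy and -0.95 and -4.16 in UUO kidneys; the UUO arrays differed from each other by 3.21 for it, and the rise was at least 11-fold (fitted log2 change 5.69 ± 0.91 (SE), adjusted p = 0.00797).

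Other leading rises were of genes known mainly from other tissues or from dividing cells. Vgf, a secreted neuropeptide precursor, rose at least 23.6-fold, and Lgi2, a secreted leucine-rich repeat protein of the nervous system, had a log2 change of 6.02. Arhgap36, a protein that restrains protein kinase A, rose at least 44.2-fold. Mybpc2, the fast-muscle myosin-binding protein C, was not well above background on either healthy array and rose at least 21.2-fold. Of the 11 skeletal muscle markers, Ckm, Myh1, Myh2, Myh4 and Mylpf were not well above background on any wild-type array, while Acta1, Tnni2, Tnnc2 and Pvalb were on all 4. The troponin gene Tnni2 was the single muscle marker that rose (log2 change 1.89), and the part of muscle in the rise of Mybpc2 was not tested. Iqgap3 and the mitotic kinase Melk, both of dividing cells, rose at least 15.6-fold and 14.6-fold. Gpnmb, a glycoprotein of lysosome-rich macrophages, rose at least 35.4-fold. Of the 20 genes called among the 20 largest rises, 20 kept the call without healthy replicate 1, 20 without healthy replicate 2, 19 without UUO replicate 1 and 20 without UUO replicate 2.

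**Figure D2:**
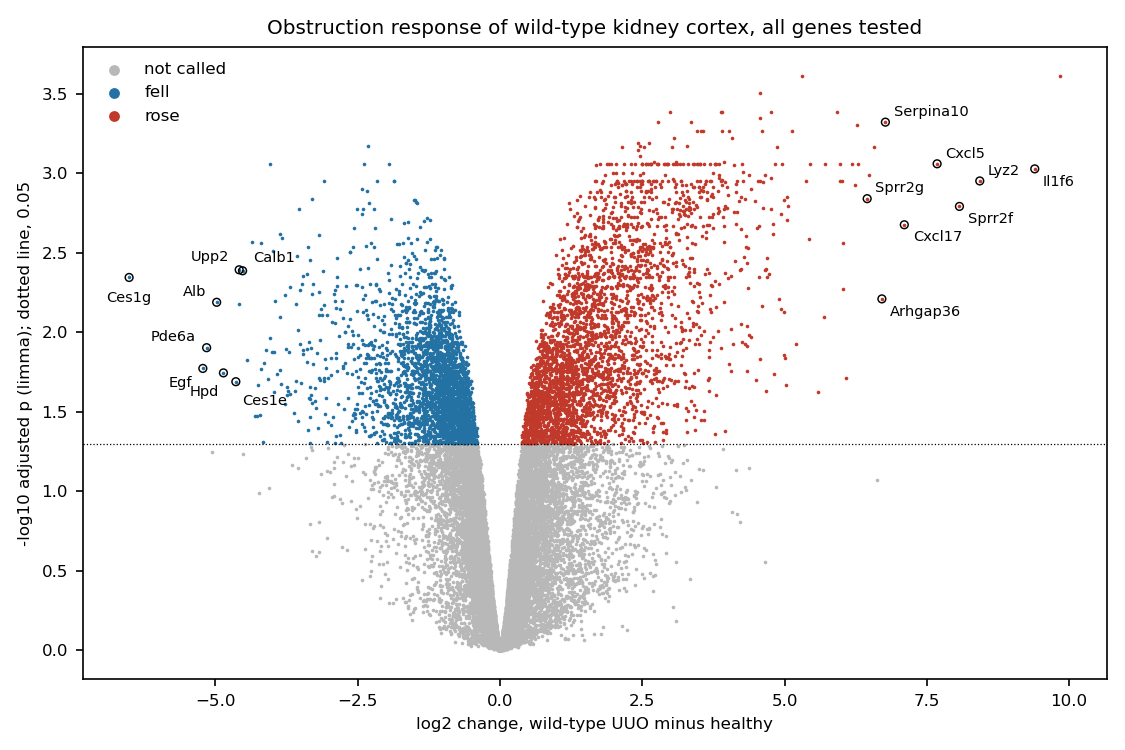
Each point is 1 of the 23877 genes or transcripts, by log2 change (wild-type UUO minus healthy, horizontal) and by -log10 of the limma adjusted p (vertical); red points rose (3372), blue points fell (2806) and grey points were not called. Named points are the 8 largest rises and 8 largest falls outside the standard markers, and the right arm reaches farther (380 rises above 3) than the left (103 falls below -3).

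The largest falls included genes of differentiated tubule epithelium. Ces1g, a carboxylesterase that hydrolyses lipid and drug esters, had levels of -0.56 and 0.47 in healthy and -6.48 and -6.65 in UUO kidneys. Neither UUO array was well above background for it, and the fall was at least 61.4-fold (fitted log2 change -6.52 ± 0.88 (SE), adjusted p = 0.00451). The related Ces1e had a log2 change of -4.64. Egf, the growth factor precursor made by the distal convoluted tubule, had levels of 4.64 and 4.60 in healthy and -0.97 and -0.23 in UUO kidneys. The healthy arrays differed by 0.0446 and both UUO arrays lay at least 4.83 log2 units lower (log2 change -5.22 ± 1.07 (SE), adjusted p = 0.0168). Calb1, a calcium-binding protein of the same segment, and Pvalb, parvalbumin of its first part, changed by -4.52 and -4.14. Slc22a8, the organic anion transporter OAT3, had levels of 0.14 and 0.41 in healthy and -4.79 and -3.38 in UUO kidneys, with no overlap (log2 change -4.36 ± 0.50 (SE), adjusted p = 0.0027). Hpd, the second enzyme of tyrosine breakdown, changed by -4.86, and the uridine phosphorylase Upp2 fell at least 17.8-fold. Alb, which encodes albumin, had levels of -2.13 and -2.13 in healthy and -8.20 and -6.02 in UUO kidneys. It was not well above background in either UUO kidney and fell at least 14.4-fold (fitted log2 change -4.98 ± 0.74 (SE), adjusted p = 0.00646). Pde6a, the alpha subunit of the rod photoreceptor phosphodiesterase, had levels of 0.00 and 0.33 in healthy and -5.69 and -4.29 in UUO kidneys, and both healthy arrays were bright for it (log2 change -5.15 ± 0.95 (SE), adjusted p = 0.0125). Perm1, a muscle regulator of mitochondrial genes that acts with estrogen-related receptors, changed by -4.12. Klk1b8 and Klk1b16, kallikrein proteases, changed by -4.08 and -4.20, and Cyp2b10 and Cyp2d34 by -4.04 and -4.21. The serine protease Tmprss9 (-4.16), the axonemal dynein Dnah11 (at least 8.17-fold lower), Tmem207 (at least 14.9-fold lower) and the uncharacterised 2310081J21Rik (at least 17.8-fold lower) completed the leading falls with Vmn1r20 (-4.21). The last is labelled as a vomeronasal receptor, and 3 relatives, Vmn1r6, Vmn1r33 and Vmn1r34, were well above background on both healthy and on neither UUO array, and were at least 10.4-fold lower, at least 11.3-fold lower and at least 12.9-fold lower. Probes for such multigene families, kallikreins and carboxylesterases included, can bind more than 1 member, so the assignment to a single gene is uncertain. Of the 23 falling genes, 13 kept the call without healthy replicate 1, 13 without healthy replicate 2, 6 without UUO replicate 1 and 12 without UUO replicate 2.

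**Figure D3:**
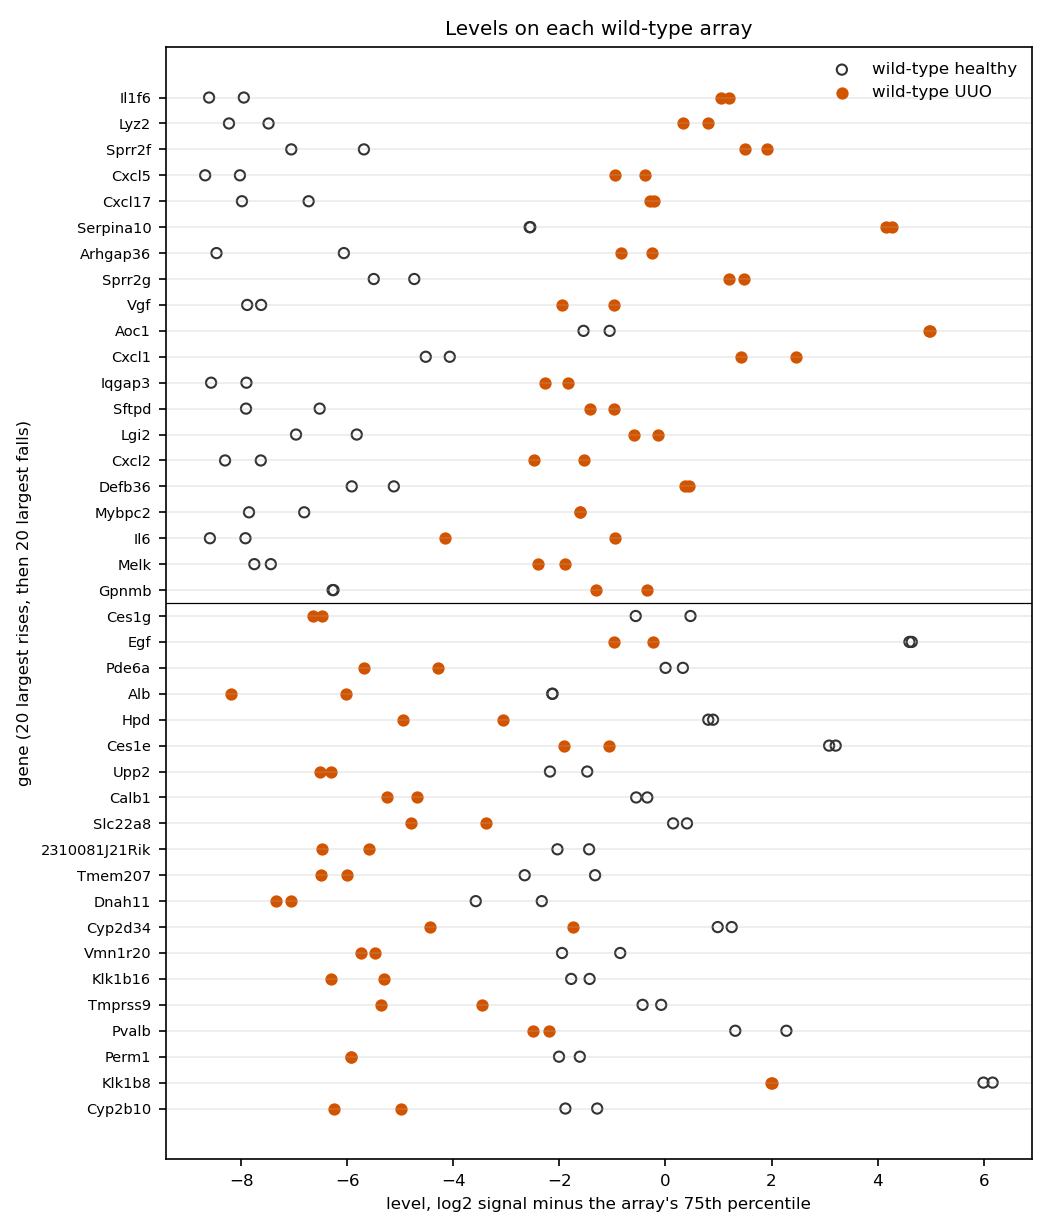
Level of 40 genes on each wild-type array (horizontal axis, log2 signal relative to the array's 75th percentile; open circles healthy, filled circles UUO, 2 points each). The upper 20 genes are the largest rises and the lower 20 the largest falls outside the standard markers. The groups do not overlap for any of them, as the rule for naming them required, and the UUO arrays lie farthest apart for Il6.

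Promoters of the leading genes are shown because the transcription factors discussed further below (the inflammatory factor C/EBP and the stress factor AP-1) bind known letter patterns. Sequences are RefSeq promoters on mouse build GRCm38.p6, 250 bases before to 50 bases after a start, and 29 of the 40 leading genes had one. The letters TTGCNNAA for C/EBP and TGANTCA for AP-1 were searched on both strands, and capitals mark the C/EBP letters in Alb and Il6 and the AP-1 letters in Sprr2f. Alb, which fell, and Il6, which rose, held the C/EBP letters, and Sprr2f, which rose, held the AP-1 letters, as did Il6, where they are left in lower case. Among the 40 leading genes, the C/EBP letters were also in promoters of Aoc1 and Defb36, which rose, and Egf and Cyp2b10, which fell, and the AP-1 letters in those of Aoc1 and Gpnmb, which rose, and Hpd, which fell.
Alb, chr5:90460620-90460919, plus strand: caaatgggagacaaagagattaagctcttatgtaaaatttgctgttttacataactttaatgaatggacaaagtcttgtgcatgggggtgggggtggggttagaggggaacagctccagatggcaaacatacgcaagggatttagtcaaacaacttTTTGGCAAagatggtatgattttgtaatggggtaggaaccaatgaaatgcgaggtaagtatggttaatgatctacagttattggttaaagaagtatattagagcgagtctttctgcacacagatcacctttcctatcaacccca
Il6, chr5:30012864-30013163, plus strand: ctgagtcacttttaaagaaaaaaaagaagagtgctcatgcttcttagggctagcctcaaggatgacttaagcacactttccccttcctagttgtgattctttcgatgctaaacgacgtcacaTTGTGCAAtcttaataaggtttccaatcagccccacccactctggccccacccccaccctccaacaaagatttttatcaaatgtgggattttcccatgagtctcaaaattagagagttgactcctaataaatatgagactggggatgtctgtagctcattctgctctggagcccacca
Sprr2f, chr3:92364937-92365236, plus strand: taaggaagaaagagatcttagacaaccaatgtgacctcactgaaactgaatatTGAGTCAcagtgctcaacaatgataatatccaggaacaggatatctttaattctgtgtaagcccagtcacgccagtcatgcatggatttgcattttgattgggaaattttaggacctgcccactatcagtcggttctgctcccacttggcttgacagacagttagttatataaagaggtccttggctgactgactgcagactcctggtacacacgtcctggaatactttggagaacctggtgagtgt
The capitals begin 94 bases before the start in Alb, 128 bases before it in Il6 and 197 bases before it in Sprr2f. The C/EBP letters were in 9.51% of the 2146 promoters of genes that fell, 9.27% of the 2633 promoters of genes that rose, 9.28% of the 16484 promoters of all genes tested and 10.8% of all 32851 promoters. For the AP-1 letters these shares were 5.55, 7.25, 5.95 and 7.81%. For the letters CAAAGTCCA of the tubule factor HNF4, searched in the same way, they were 1.12, 0.646, 0.467 and 0.475%. Behind these were 24 promoters of genes that fell and 17 of genes that rose. Other patterns were searched too, with shares in promoters of genes that fell, rose and were tested of 1.35, 0.456 and 0.57% for HNF1. For ESRRA these were 0.233, 0.266 and 0.291%, and for NF-Y 39.7, 35.2 and 37.2%. ISRE gave 6.29, 9.3 and 7.52%, and the E-box 9.65, 6.8 and 8.97%. NF-kB gave 5.41, 7.25 and 6.82%, CHR 12.1, 14.8 and 13.2%, and the antioxidant element 14.6, 13.5 and 13.9%. A match describes letters only and shows no binding.

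Most receptors by which macrophages and neutrophils sense microbes and debris rose, set against 14.1% of all genes. Among Toll-like, Fc, lectin and other innate receptors, 26 of 39 tested members rose and 1 fell (median log2 change 1.70), and with 1 array left out 21 to 27 rose. Trem2, a lipid-sensing receptor of macrophages, had levels of -3.51 and -3.81 in healthy and 0.77 and 1.07 in UUO kidneys. The UUO arrays were both high and the healthy arrays both low, and Trem2 had the smallest adjusted p of the list (log2 change 4.58 ± 0.17 (SE), adjusted p = 0.000313). Tlr2, the receptor for bacterial lipoproteins, had levels of -3.01 and -3.22 in healthy and 0.77 and 0.80 in UUO kidneys, equally well separated (log2 change 3.90 ± 0.21 (SE), adjusted p = 0.000541). The scavenger receptor Msr1 (at least 4.23-fold), Tlr1 (2.66), the RNA sensor Tlr13 (1.76) and the endotoxin receptor Tlr4 (0.99) rose too. Tlr3, a sensor of double-stranded RNA, did not pass (log2 change 0.49, adjusted p = 0.179). The single member that fell was Mertk, a receptor with which phagocytes take up dying cells: its levels were 0.60 and 0.64 in healthy and -0.57 and -0.64 in UUO kidneys, without overlap (log2 change -1.23 ± 0.17 (SE), adjusted p = 0.00526).

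Cytokine signalling genes rose in the majority, with exceptions. In the list of interleukin, TNF and colony stimulating factor signalling, 30 of 55 tested members rose and 3 fell (median log2 change 1.12), with 20 to 29 rising when 1 array was left out. Tnf had levels of -7.84 and -7.01 in healthy and -3.80 and -3.87 in UUO kidneys. Neither healthy array was well above background and both UUO arrays were (at least 4.54-fold higher, fitted log2 change 3.59 ± 0.25 (SE), adjusted p = 0.000869). The receptor chains Il10ra (2.46) and Csf2rb (2.82), Cd40 (2.36) and Il1b (2.15) rose as well. So did both natural brakes of interleukin-1, the antagonist Il1rn (at least 2.27-fold) and the decoy receptor Il1r2 (at least 3.85-fold), while the signalling receptor Il1r1 did not pass (log2 change 0.95, adjusted p = 0.101). Against this direction, Il15, the cytokine that sustains natural killer and memory T cells, had levels of -1.30 and -1.09 in healthy and -2.91 and -2.80 in UUO kidneys. Both UUO arrays were lower for Il15 (log2 change -1.66 ± 0.27 (SE), adjusted p = 0.00858), and Il11ra1 (-0.95) and the death receptor Tnfrsf21 (-1.08) fell too. Of the 17 innate and cytokine genes called, 17 kept the call without healthy replicate 1, 14 without healthy replicate 2, 12 without UUO replicate 1 and 13 without UUO replicate 2.

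Complement genes rose along most of the cascade. Among complement components and receptors, 19 of 31 tested members rose and 2 fell (median log2 change 1.44), and 12 to 16 rose with 1 array left out. C3, the central component, had levels of 2.22 and 2.01 in healthy and 7.18 and 7.15 in UUO kidneys, a jump shared by both UUO arrays (log2 change 5.05 ± 0.52 (SE), adjusted p = 0.00197). The subunits of the initiating complex, C1qa (2.96), C1qb (3.03) and C1qc (3.04), and the associated protease C1ra (1.50) rose. The inflammatory receptor C5ar1 rose by 3.27, and the inhibitor Cfi, which inactivates C3b, by 3.42 on the log2 scale. Cd59a, which shields cells from the terminal attack complex, had levels of 1.25 and 0.89 in healthy and 0.21 and 0.22 in UUO kidneys, and both UUO arrays were lower (log2 change -0.86 ± 0.18 (SE), adjusted p = 0.0169). The terminal component gene C8g also fell, with a log2 change of -2.01.

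Clotting and leukocyte-entry genes showed the same split between a rising majority and a few falls. For coagulation, plasminogen and serpins, 15 of 38 tested members rose and 3 fell (median log2 change 1.04), and with 1 array left out 5 to 14 rose. The urokinase receptor Plaur (2.33), the thrombin receptor F2r (1.73), tissue factor F3 (1.26), heparin cofactor Serpind1 (at least 3.62-fold) and the granzyme inhibitor Serpinb9 (1.73) rose. F13b, a subunit of the clot-stabilising factor XIII, had levels of 1.17 and 1.62 in healthy and -1.90 and -1.26 in UUO kidneys, and the UUO arrays were both lower (log2 change -2.98 ± 0.58 (SE), adjusted p = 0.0144). Antithrombin, Serpinc1 (-1.90), and F5 (-1.38) also fell. In the entry list, 20 of 31 tested members rose and 1 fell (median log2 change 1.41), and 10 to 15 rose with 1 array left out. Icam1, the endothelial and epithelial ligand of leukocyte integrins, had levels of -3.79 and -3.06 in healthy and -0.61 and -0.73 in UUO kidneys (log2 change 2.76 ± 0.28 (SE), adjusted p = 0.00177). Selp (at least 2.33-fold), the selectin ligand Selplg (2.16) and Ccr7 (2.15) rose. Cxcl12, a chemokine that holds leukocytes and progenitors in place, fell, with levels of 3.04 and 2.41 in healthy and 1.10 and 1.0 in UUO kidneys and no overlap (log2 change -1.68 ± 0.34 (SE), adjusted p = 0.016). With the slide as a random block, 14 members of the entry list rose and 0 fell, so the call of Cxcl12 was not kept. Of the 22 genes called in these families, 18 kept the call without healthy replicate 1, 17 without healthy replicate 2, 14 without UUO replicate 1 and 16 without UUO replicate 2.

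Many stress-induced transcription factors rose in obstructed cortex, with differences between the UUO arrays among the fastest responders. Among immediate early and stress transcription factors, 24 of 44 tested members rose and 2 fell (median log2 change 1.63), and 9 to 24 rose with 1 array left out. Atf3, a general stress-induced repressor, had levels of -3.21 and -2.89 in healthy and 0.91 and 0.47 in UUO kidneys (log2 change 3.74 ± 0.40 (SE), adjusted p = 0.00219). Cebpd (3.09), Maff (3.18), Nfkb2 (2.51), Fosl1 (at least 10-fold) and Fosl2 (2.27) rose, as did Tnfaip3 (2.48), a feedback inhibitor of NF-kB. Fos itself had levels of -4.97 and -3.82 in healthy and 1.41 and -2.30 in UUO kidneys. UUO replicate 1 was 3.72 log2 units above UUO replicate 2, and the call was close to the threshold (log2 change 3.95 ± 1.11 (SE), adjusted p = 0.0417). Fosb, with levels of -4.47 and -3.45 in healthy and -1.09 and -3.88 in UUO kidneys, overlapped between the groups and did not pass (adjusted p = 0.246). Klf15, a glucocorticoid-responsive regulator of amino acid and glucose metabolism, had levels of 1.32 and 1.39 in healthy and -1.58 and -0.66 in UUO kidneys and fell in both UUO arrays (log2 change -2.48 ± 0.58 (SE), adjusted p = 0.0239). Klf9, also glucocorticoid-responsive, fell by 0.79 on the log2 scale. With the slide as a random block, 14 members of this list rose and 0 fell, so the calls of Klf15 and Klf9 were not kept.

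Several genes of growth arrest and of cell death rose too. Among p53 targets and cell cycle inhibitors, 11 of 35 tested members rose and 1 fell (median log2 change 0.54), with 2 to 11 rising when 1 array was left out. The cell cycle inhibitors Cdkn1a (2.36) and Cdkn2a (at least 4.63-fold), the death receptor Tnfrsf10b (1.86), the pro-apoptotic Bbc3 (1.86) and Trp53 itself (0.74) rose, and Ei24 (-0.87) fell. Among programmed cell death genes, 20 of 40 tested members rose and 0 fell (median log2 change 0.91), and 9 to 19 rose with 1 array left out. Ripk3, the kinase of necroptosis, had levels of -3.45 and -3.58 in healthy and -0.37 and -0.55 in UUO kidneys, with replicates close together in both groups (log2 change 3.06 ± 0.17 (SE), adjusted p = 0.000595). Gsdmd, the pore protein of pyroptosis (2.08), and Casp4, the inflammatory caspase upstream of it (3.09), rose. Of the apoptosis regulators, Bcl2l11 (1.13), Mcl1 (0.55) and Birc5 (3.47) rose, while Bcl2 (log2 change 0.06, adjusted p = 0.818) and Bcl2l1 (-0.01, adjusted p = 0.97) did not pass. Of the 22 called genes of stress and death, 18 kept the call without healthy replicate 1, 15 without healthy replicate 2, 11 without UUO replicate 1 and 13 without UUO replicate 2.

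Cytoskeleton genes rose, both those of blood cells and those used by most cells. For the actin cytoskeleton, small GTPases and focal adhesion, 34 of 60 tested members rose and 0 fell (median log2 change 0.64), and 13 to 29 rose with 1 array left out. Coro1a (2.30), Was (1.99) and Rac2 (2.09), actin regulators of blood cells, rose beside the broadly used Flna (1.81), Actn1 (1.52) and Tmsb10 (2.67). Actb rose by 0.69, whereas Actg1 and Actn4 did not pass (log2 changes 0.35 and 0.13). Among the tubulins and their partners, 13 of 31 tested members rose and 5 fell (median log2 change 0.52). Tubb6 had levels of 0.19 and 0.08 in healthy and 2.66 and 2.38 in UUO kidneys (log2 change 2.38 ± 0.31 (SE), adjusted p = 0.00399), and Tubb5 (2.14), Tuba1a (1.97) and the microtubule destabiliser Stmn1 (1.58) rose with it. The epithelial microtubule protein Map7 had levels of 0.63 and 0.86 in healthy and -0.90 and -0.66 in UUO kidneys and fell (log2 change -1.53 ± 0.32 (SE), adjusted p = 0.0174), as did Mapt (-1.01), Tppp (-1.21), Tuba4a (-0.53) and Tubb4b (-0.46). With 1 array left out, 6 to 11 tubulin-list members rose and 0 to 3 fell.

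Some epithelial contact genes also rose. For keratins, desmosomes and epithelial adhesion, 13 of 38 tested members rose and 0 fell (median log2 change 0.69), with 4 to 18 rising when 1 array was left out. Krt14 (2.73), Krt13 (2.05), desmoglein Dsg2 (1.36) and the mesenchymal cadherin Cdh11 (2.42) rose. Krt5, a basal-cell keratin, had levels of -0.22 and -3.07 in healthy and 0.88 and 1.33 in UUO kidneys and did not pass (adjusted p = 0.0947). Healthy replicate 2 was the lowest array for Krt5 and for the summed urothelium markers. Krt5 is itself 1 of those markers, so these are not separate observations. Of the claudins, which set the permeability of tight junctions, and their scaffold genes, 6 of 23 tested members rose and 1 fell (median log2 change 0.23), and 0 to 3 rose with 1 array left out. Cldn3 (2.51), Cldn7 (1.11), Cldn6 (at least 4.33-fold), Cldn1 (1.91) and Cldn4 (1.94) rose and Cldn12 (-0.74) fell. In the list of the Hippo pathway and its targets, 13 of 30 tested members rose and 0 fell (median log2 change 0.89, and with 1 array left out 5 to 13 rose and 0 to 1 fell), although the regulators Yap1, Wwtr1 and Tead1 did not pass (log2 changes 0.19, -0.18 and -0.27). Tead2 (1.89), Axl (1.70), Myof (at least 5.12-fold) and Fstl1 (2.77) rose.

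In the cilium list the largest change was that of Foxj1. This transcription factor drives the programme of motile cilia, and its levels were -6.01 and -6.43 in healthy and -1.53 and -1.39 in UUO kidneys. The healthy arrays differed by 0.429, and the UUO arrays were at least 4.47 log2 units higher (log2 change 4.76 ± 0.20 (SE), adjusted p = 0.000412). In the whole list of cilium and planar polarity genes, 5 of 44 tested members rose and 5 fell (median log2 change 0.15, and with 1 array left out 1 to 4 rose and 0 to 3 fell). Other called members had smaller changes, among them Ift74 (0.56), Pkd1 (0.61), Bbs2 (-0.76) and Ift122 (-0.62). The list's share of 11.4% in each direction was near or below that of all genes (14.1% rose and 11.8% fell). Dnah11, a dynein of motile cilia, was among the largest falls given above. Of the 35 structural genes called here, 27 kept the call without healthy replicate 1, 22 without healthy replicate 2, 15 without UUO replicate 1 and 18 without UUO replicate 2.

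Growth factors were evenly divided. In the growth factor list, 13 of 56 tested members rose and 12 fell (median log2 change 0.03), and with 1 array left out 6 to 18 rose and 2 to 9 fell. Areg, a ligand of the EGF receptor, had levels of -7.64 and -7.94 in healthy and -2.74 and -2.44 in UUO kidneys and rose (at least 10.8-fold higher, fitted log2 change 5.20 ± 0.94 (SE), adjusted p = 0.0119) while Egf, a ligand of the same receptor, fell as given above. Hbegf and Btc, further ligands, did not pass (log2 changes 1.11 and -1.14). Inhba, the activin A subunit (4.23), the stress cytokine Gdf15 (3.64), Pdgfb (2.15) and both ligands of the macrophage receptor Csf1r, Csf1 (2.07) and Il34 (2.08), rose. On the falling side stood Vegfa, with levels of 2.74 and 2.73 in healthy and 1.34 and 1.22 in UUO kidneys; both UUO arrays were lower by at least 1.39 log2 units (log2 change -1.45 ± 0.14 (SE), adjusted p = 0.00153). Its receptor Flt1 (-0.99), the angiopoietin receptor Tek (-0.80), the renal survival factors Bmp7 (-1.11) and Fgf9 (-1.10), Fgf1 (-0.89), the receptors Fgfr3 (-0.87) and Fgfr4 (-1.0) and the binding proteins Igfbp3 (-1.55), Igfbp4 (-1.55) and Igfbp5 (-1.44) fell too.

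Of the hormone genes of the kidney, 23.5% fell and 11.8% rose, against 11.8% and 14.1% of all genes. In the hormone list, 8 of 34 tested members fell and 4 rose (median log2 change -0.54, and with 1 array left out 0 to 4 fell and 1 to 2 rose). Kl, the klotho co-receptor through which FGF23 lowers phosphate uptake, had levels of 4.19 and 4.28 in healthy and 1.42 and 2.05 in UUO kidneys (log2 change -2.50 ± 0.46 (SE), adjusted p = 0.0125). Klk1, tissue kallikrein, had levels of 6.94 and 7.32 in healthy and 3.36 and 3.40 in UUO kidneys, with both UUO arrays at least 3.54 log2 units lower (log2 change -3.75 ± 0.88 (SE), adjusted p = 0.0246). The vitamin D receptor Vdr (-0.82), the angiotensin receptor Agtr1a (-0.64), the glucagon receptor Gcgr (-1.57) and Ace (-1.27) fell. Edn1, the vasoconstrictor endothelin, had levels of -3.96 and -4.44 in healthy and -0.52 and -0.47 in UUO kidneys and rose (log2 change 3.70 ± 0.34 (SE), adjusted p = 0.00138), with its receptor Ednra (1.89) and with Agt (0.93) and Igf1 (1.69). Renin, Ren1, did not pass (log2 change -1.17, adjusted p = 0.0617). In the prostaglandin list 7 of 22 tested members rose and 2 fell (median log2 change 0.29, and with 1 array left out 2 to 6 rose and 0 to 1 fell). Alox5ap (2.33) and Ptgds (2.34), of leukotriene and prostaglandin D2 synthesis, rose, as did the inducible cyclooxygenase Ptgs2 (2.52, adjusted p = 0.0495), and the E2 synthases Ptges (-0.57) and Ptges2 (-1.01) fell.

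Most developmental regulators did not pass, and 2 rose. In that list, 5 of 52 tested members fell and 2 rose (median log2 change 0.07, and with 1 array left out 0 to 5 fell and 1 to 4 rose). Sox4 had levels of -1.11 and -1.35 in healthy and 1.22 and 1.20 in UUO kidneys (log2 change 2.44 ± 0.36 (SE), adjusted p = 0.00633), and Sox11, its close relative, rose by 3.32. The nephron regulators Pax2 (log2 change -0.14), Pax8 (0.20) and Lhx1 (-0.87) did not pass. The falls, in Osr1 (-1.10) and 4 Hox genes such as Hoxd8 (-0.91), were small. Of the Wnt genes, 3 of 50 tested members rose and 2 fell (median log2 change 0.22, and with 1 array left out 0 to 7 rose and 0 to 1 fell), including rises of Fzd2 (1.12) and Wnt10a (1.81). Of the 38 genes called among ligands, receptors and developmental factors, 24 kept the call without healthy replicate 1, 21 without healthy replicate 2, 11 without UUO replicate 1 and 15 without UUO replicate 2.

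Many transporters of the proximal tubule fell across substrates, set against 11.8% of all genes that fell. Among sugar, phosphate and proton transporters, 16 of 23 tested members fell and 1 rose (median log2 change -1.50), with 1 to 11 falling when 1 array was left out and the fewest without UUO replicate 1. Slc2a5, the fructose transporter, had levels of 3.86 and 3.73 in healthy and 0.76 and 0.66 in UUO kidneys. Replicates differed by 0.132 and 0.101, and the UUO arrays were at least 2.97 log2 units lower (log2 change -3.08 ± 0.25 (SE), adjusted p = 0.00111). Slc34a1, the main phosphate cotransporter, had levels of 7.07 and 7.46 in healthy and 4.40 and 5.34 in UUO kidneys (log2 change -2.39 ± 0.66 (SE), adjusted p = 0.0391). The glucose carrier Slc2a2 (-1.59), the inositol transporter Slc5a11 (-1.85), the bicarbonate exporter Slc4a4 (-1.62) and the citrate transporter Slc13a2 (-1.80) fell. The glucose transporter Slc5a2 had a change of similar size that did not pass (log2 change -1.92, adjusted p = 0.0567). The exception was Slc13a1, the sulfate transporter, with levels of 2.34 and 2.85 in healthy and 3.60 and 3.57 in UUO kidneys: both UUO arrays were higher (log2 change 0.99 ± 0.18 (SE), adjusted p = 0.012).

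Amino acid and drug transporters showed the same pattern with different exceptions. In the amino acid list, 9 of 22 tested members fell and 2 rose (median log2 change -1.11), with 0 to 5 falling when 1 array was left out (none without either UUO array). Slc6a19, the neutral amino acid transporter of the brush border, had levels of 1.56 and 2.55 in healthy and -1.10 and -0.66 in UUO kidneys (log2 change -2.94 ± 0.77 (SE), adjusted p = 0.0339). Its partner Cltrn (-1.58), the cystine transporter subunits Slc3a1 (-1.33) and Slc7a9 (-1.21), and Slc6a18 (-1.58) fell. The 2 that rose, Slc7a5 (2.01) and Slc38a2 (1.08), supply amino acids to growing or starved cells rather than recovering them from the filtrate. Among organic ion transporters, 14 of 26 tested members fell and 1 rose (median log2 change -1.41, and with 1 array left out 2 to 7 fell and 0 to 1 rose). The carnitine transporter Slc22a5 had levels of 2.07 and 1.86 in healthy and -0.47 and -0.00 in UUO kidneys (log2 change -2.20 ± 0.24 (SE), adjusted p = 0.0022), and Slc22a4 (-1.80), Slc22a13 (-1.49), Slc22a2 (-1.63) and Slco1a6 (-2.06) fell with it. The prostaglandin carrier Slco2a1 rose by 1.33. The endocytic receptors Lrp2 (megalin, -1.93) and Cubn (cubilin, -1.55) fell, and in their list 5 of 15 tested members fell and 0 rose (median log2 change -0.29, and with 1 array left out 0 to 4 fell and 0 to 1 rose). Over all 341 solute carriers tested, 9.38% rose and 31.4% fell. Of the 22 called proximal tubule genes, 15 kept the call without healthy replicate 1, 13 without healthy replicate 2, 2 without UUO replicate 1 and 12 without UUO replicate 2.

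Most transporters of the loop and the distal convoluted tubule fell. In the list of loop and distal convoluted tubule transporters, 18 of 30 tested members fell and 1 rose (median log2 change -1.13), and 1 to 10 fell with 1 array left out, fewest without UUO replicate 1. Slc12a1, the loop salt transporter blocked by furosemide, had levels of 2.48 and 1.73 in healthy and -0.78 and -1.06 in UUO kidneys (log2 change -3.02 ± 0.65 (SE), adjusted p = 0.0193). Umod, the uromodulin secreted by the same segment, had levels of 6.72 and 6.83 in healthy and 6.42 and 6.42 in UUO kidneys and did not pass (log2 change -0.36, adjusted p = 0.149). The potassium channel genes Kcnj1 (-1.54) and Kcnj16 (-1.13), the sodium pump subunit Atp1b1 (-1.15) and the kinase Wnk1 (-1.49) fell. Cldn14, a claudin that limits calcium recovery, rose by 1.52. S100g, a calcium-binding protein of distal calcium recovery kept in the S100 list, had levels of 6.34 and 6.59 in healthy and 3.39 and 2.51 in UUO kidneys and fell (log2 change -3.51 ± 0.50 (SE), adjusted p = 0.00541).

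In the collecting duct, most intercalated cell genes fell, while most water and sodium genes did not pass. For intercalated cell and proton pump genes, 15 of 24 tested members fell and 0 rose (median log2 change -1.01), with 2 to 10 falling when 1 array was left out. Slc4a1, the basolateral anion exchanger of acid-secreting cells, had levels of 1.0 and 0.82 in healthy and -1.97 and -2.81 in UUO kidneys (log2 change -3.30 ± 0.81 (SE), adjusted p = 0.0279). Slc4a1 is also counted in the red blood cell list, whose summed signal was lower on both UUO arrays. The part of blood in its fall was not tested. The anion exchangers Slc26a4 (-2.50) and Slc4a9 (-1.62) of base-secreting cells, the carbonic anhydrase Car14 (-3.15) and the proton pump subunits Atp6v1c2 (-2.17) and Atp6v1a (-1.18) fell. In the water and sodium list, 6 of 22 tested members fell and 1 rose (median log2 change -0.44, and with 1 array left out 0 to 4 fell and 1 to 2 rose). Aqp2, the vasopressin-regulated water channel, had levels of 3.37 and 2.48 in healthy and 0.57 and 0.48 in UUO kidneys (log2 change -2.40 ± 0.62 (SE), adjusted p = 0.0317), and Aqp3 (-2.43), Aqp11 (-2.09) and Scnn1a (-1.18) fell. The sialyltransferase St6gal1 rose by 1.82. Podocyte genes moved both ways: 5 of 17 tested members rose and 2 fell (median log2 change 0.52, and with 1 array left out 1 to 3 rose and 0 to 1 fell), with Myh9 (1.15) and Nes (1.19) up and Podxl (-1.07) down. Nphs1 and Wt1 did not pass (log2 changes -0.58 and 0.37). Of the podocyte list 29.4% rose and 11.8% fell, against 14.1% and 11.8% of all genes, so its falls were at the general share. Of the 21 called distal and glomerular genes, 16 kept the call without healthy replicate 1, 11 without healthy replicate 2, 5 without UUO replicate 1 and 8 without UUO replicate 2.

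**Figure D4:**
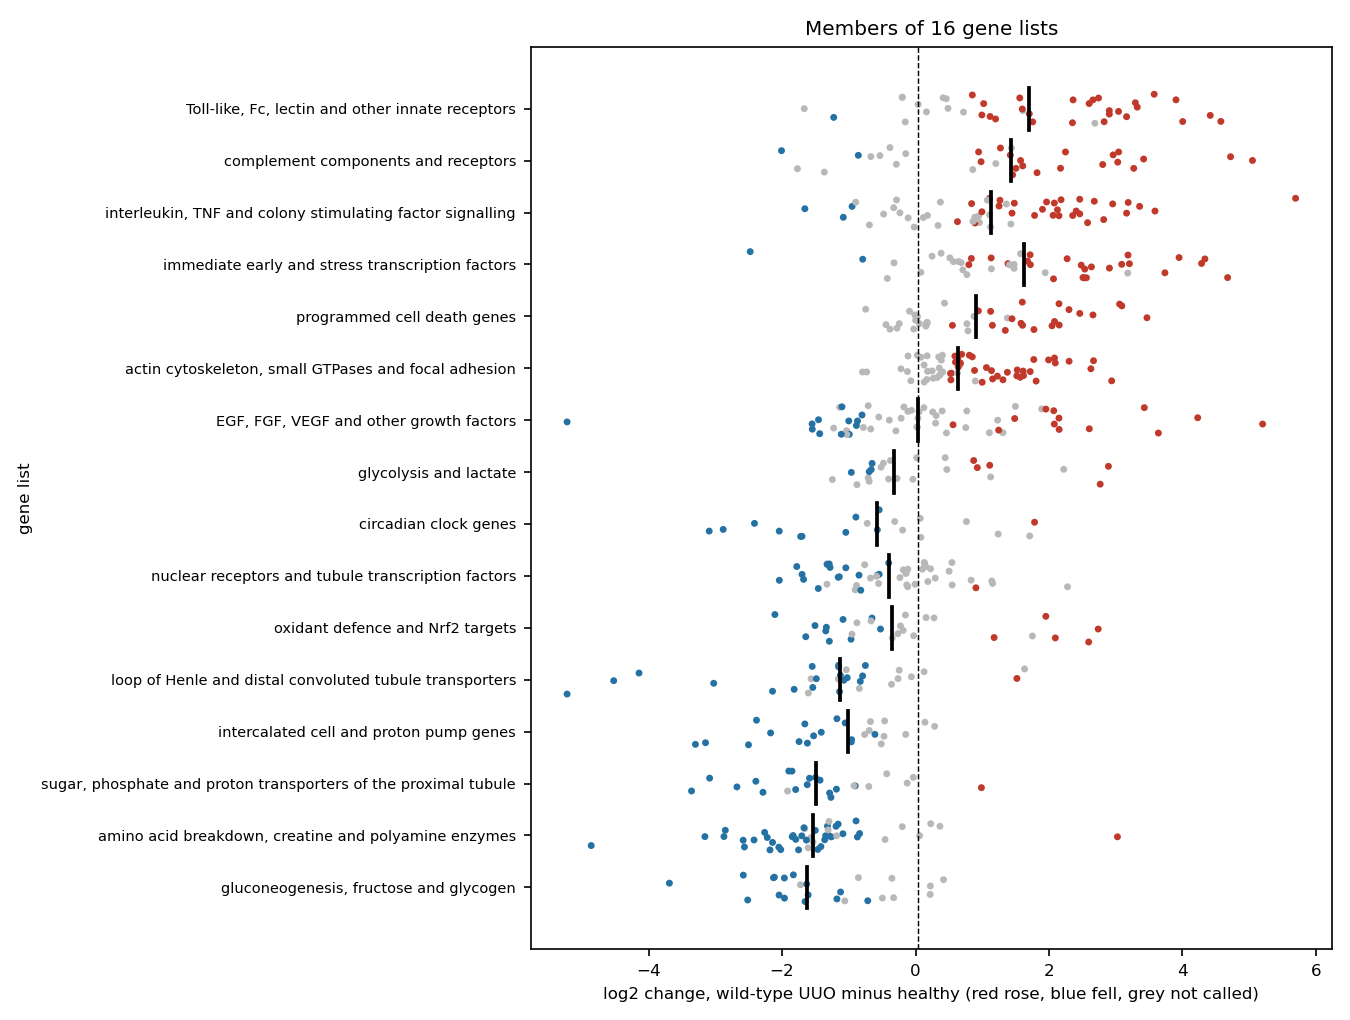
Log2 change (wild-type UUO minus healthy, horizontal axis) of every tested member of 16 gene lists, 1 point per gene, with red points for genes that rose, blue for genes that fell and grey for no call; the black bar is the list median and the dashed line the median of all genes (0.04). Innate receptor and complement lists lie mostly to the right, transport and metabolic lists mostly to the left, with single members on the other side.

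Enzymes of amino acid breakdown fell in the majority. For amino acid breakdown, creatine and polyamine enzymes, 34 of 47 tested members fell and 1 rose (median log2 change -1.54), and 3 to 18 fell with 1 array left out, fewest without UUO replicate 1. Gatm, the first enzyme of creatine synthesis, had levels of 3.93 and 3.54 in healthy and 0.62 and 1.11 in UUO kidneys (log2 change -2.87 ± 0.35 (SE), adjusted p = 0.00339), and the next enzyme of that route, Gamt, fell by 1.26. Gldc, of glycine cleavage, had levels of 2.09 and 2.34 in healthy and -0.43 and -0.27 in UUO kidneys (log2 change -2.56 ± 0.28 (SE), adjusted p = 0.0022). The glyoxylate enzyme Agxt2 (-2.14), the betaine-using methyltransferase Bhmt (-3.16) and glutamate dehydrogenase Glud1 (-0.84) fell. The single rise was Arg2, the mitochondrial arginase, with levels of -2.69 and -3.61 in healthy and -0.29 and 0.05 in UUO kidneys: both UUO arrays were at least 2.39 log2 units higher (log2 change 3.03 ± 0.36 (SE), adjusted p = 0.00324). For NAD synthesis and use, 12 of 23 tested members fell and 0 rose (median log2 change -0.67), with 0 to 4 falling when 1 array was left out. Kmo had levels of 3.37 and 3.55 in healthy and 0.23 and 1.03 in UUO kidneys (log2 change -2.83 ± 0.49 (SE), adjusted p = 0.0106), and Afmid (-2.31), Haao (-2.17), Nadsyn1 (-1.01) and the mitochondrial deacylase Sirt3 (-1.56) fell, while Kynu did not pass (log2 change -0.01).

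Most genes of gluconeogenesis, fructose and glycogen fell and those of glycolysis were split. Of the glycolysis list 20.8% rose and 16.7% fell, against 14.1% and 11.8% of all genes. In the gluconeogenesis list 15 of 24 tested members fell and 0 rose (median log2 change -1.62), and 5 to 8 fell with 1 array left out. G6pc, which releases free glucose, had levels of 5.21 and 5.03 in healthy and 1.07 and 1.79 in UUO kidneys (log2 change -3.69 ± 0.52 (SE), adjusted p = 0.00519). Pck1, the committed enzyme of the route, had levels of 6.25 and 6.19 in healthy and 3.35 and 4.05 in UUO kidneys (log2 change -2.51 ± 0.25 (SE), adjusted p = 0.00167), while its mitochondrial form Pck2 did not pass (log2 change 0.42). Pcx (-1.83), Gpd1 (-1.66), Slc37a4 (-2.04) and the fructose enzyme Tkfc (-1.61) fell. In the glycolysis list 5 of 24 tested members rose and 4 fell (median log2 change -0.33, and with 1 array left out 2 to 5 rose and 0 to 4 fell). Slc16a3, the lactate exporter of glycolytic cells, had levels of -2.77 and -2.94 in healthy and 0.11 and -0.04 in UUO kidneys (log2 change 2.89 ± 0.19 (SE), adjusted p = 0.000869), and Hk3 (2.77), Pfkp (0.93), Pfkfb4 (0.87) and Slc2a3 (1.11) rose. Gapdh (-0.69), Pgam1 (-0.66), Pfkm (-0.96) and Pdk1 (-0.65) fell. Hk2 spread from -1.27 to -6.41 between the healthy arrays alone and did not pass (adjusted p = 0.426).

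Among one-carbon and nucleotide genes, 29.7% rose and 13.5% fell, against 14.1% and 11.8% of all genes. The falls were thus near the share over all genes. In the list of pentose phosphate, nucleotide and one-carbon synthesis, 11 of 37 tested members rose and 5 fell (median log2 change -0.02, and with 1 array left out 6 to 8 rose and 0 to 5 fell). Mthfd2 had levels of -3.37 and -3.81 in healthy and -1.46 and -0.89 in UUO kidneys (log2 change 2.42 ± 0.30 (SE), adjusted p = 0.00357), and its mitochondrial partner Mthfd1l (1.66) and the ribonucleotide reductase subunits Rrm1 (1.52) and Rrm2 (2.56) rose. Mthfd1 (-1.55), Shmt2 (-1.95) and the p53-induced subunit Rrm2b (-0.87) fell. Of the 34 metabolic genes called, 26 kept the call without healthy replicate 1, 21 without healthy replicate 2, 15 without UUO replicate 1 and 20 without UUO replicate 2.

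Many detoxifying enzymes fell. For the cytochrome P450 list, 12 of 34 tested members fell and 4 rose (median log2 change -1.27), and 2 to 8 fell with 1 array left out. Cyp2d26 had levels of 4.55 and 5.38 in healthy and 1.47 and 2.25 in UUO kidneys (log2 change -3.10 ± 0.40 (SE), adjusted p = 0.00412), and the arachidonic acid epoxygenases Cyp2c23 (-1.77) and Cyp2j5 (-1.23) fell. Cyp4f18, an enzyme of neutrophils, had levels of -1.47 and -0.95 in healthy and 0.53 and 0.68 in UUO kidneys and rose (log2 change 1.81 ± 0.20 (SE), adjusted p = 0.00221), with Cyp1b1 (1.41), Cyp4v3 (1.10) and Cyp2s1 (0.96). In the conjugation list 16 of 42 tested members fell and 1 rose (median log2 change -0.93, and with 1 array left out 3 to 11 fell and 0 to 1 rose): the glutathione transferases Gstk1 (-1.97), Gstt2 (-1.16) and Gsta3 (-1.28) fell, and Gpx2 (1.81) rose.

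In the oxidant list, phagocyte oxidase genes rose and several defence genes fell: 10 of 27 tested members fell and 5 rose (median log2 change -0.35, and with 1 array left out 2 to 7 fell and 4 to 6 rose). The phagocyte oxidase genes rose: Ncf1 (2.59), Ncf4, with levels of -1.68 and -1.42 in healthy and 1.11 and 1.26 in UUO kidneys (log2 change 2.74 ± 0.22 (SE), adjusted p = 0.00111), and Cybb (1.95), with Hmox1 (1.18). The tubular oxidase Nox4 had levels of 3.08 and 3.57 in healthy and 1.81 and 1.83 in UUO kidneys and fell (log2 change -1.51 ± 0.25 (SE), adjusted p = 0.00876). Catalase, Cat (-1.64), Prdx3 (-1.09), Osgin1 (-2.11) and the classic Nrf2 target Nqo1 (-1.34) fell, while Nfe2l2, which encodes Nrf2, and Keap1 did not pass (log2 changes 0.28 and -0.03). Of the iron and heme genes, 5 of 29 tested members fell and 3 rose (median log2 change -0.03, and with 1 array left out 0 to 6 fell and 2 to 4 rose). Cp, the ferroxidase ceruloplasmin, had levels of 1.09 and 0.14 in healthy and 4.22 and 4.39 in UUO kidneys (log2 change 3.69 ± 0.30 (SE), adjusted p = 0.00111), and the phagosomal iron exporter Slc11a1 rose by 2.47. The heme synthesis genes Alas1 (-1.01), Urod (-0.65) and Fech (-0.97) fell. Few lipid-synthesis genes passed. In the cholesterol list 3 of 29 tested members fell and 2 rose (median log2 change -0.42, and with 1 array left out 1 to 4 fell and 0 to 3 rose), and in the list of other lipids 4 of 43 tested members fell and 2 rose (median log2 change -0.20, and with 1 array left out 0 to 4 fell and 1 to 2 rose). Among them the cholesterol exporter Abca1 (2.34) and sphingosine kinase Sphk1 (2.15) rose and the triglyceride enzyme Dgat2 (-1.91) fell. Of the 28 genes called here, 25 kept the call without healthy replicate 1, 21 without healthy replicate 2, 12 without UUO replicate 1 and 17 without UUO replicate 2.

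Several regulators of tubule genes fell. In the list of nuclear receptors and tubule transcription factors, 16 of 47 tested members fell and 1 rose (median log2 change -0.40), and 2 to 9 fell with 1 array left out. The thyroid hormone receptor Thrb had levels of 0.07 and -0.47 in healthy and -2.01 and -1.94 in UUO kidneys (log2 change -1.78 ± 0.21 (SE), adjusted p = 0.00279). Hnf4a, which maintains proximal tubule genes, did not pass (log2 change -1.32, adjusted p = 0.0575), and neither did its relative Hnf4g (-0.23). The coactivator Ppargc1b (-1.14) and Esrrg (-0.85) fell.

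Among clock genes, the output activators fell and the core activators did not pass. In the clock list 10 of 19 tested members fell and 1 rose (median log2 change -0.57), and 3 to 8 fell with 1 array left out. Per2 had levels of -1.33 and -1.62 in healthy and -4.06 and -3.72 in UUO kidneys, and both UUO arrays lay at least 2.1 log2 units below both healthy arrays (log2 change -2.41 ± 0.24 (SE), adjusted p = 0.00167). The 3 related output activators all fell: Dbp, with levels of 3.98 and 4.61 in healthy and 2.14 and 2.37 in UUO kidneys (log2 change -2.04 ± 0.31 (SE), adjusted p = 0.00664), Tef (-1.72) and Hlf (-2.88). Nr1d2, a repressor of the loop, fell by 1.04. Nfil3, the repressor that competes with them for the same sites, was the single rise. Its levels were -0.94 and -1.30 in healthy and 0.54 and 0.79 in UUO kidneys (log2 change 1.78 ± 0.44 (SE), adjusted p = 0.0287). With the slide as a random block, 5 clock genes fell and 0 rose, so the call of Nfil3 was not kept. The core pair Arntl (log2 change 0.76, adjusted p = 0.218) and Clock (-0.31, adjusted p = 0.448) and Per1 (0.07, adjusted p = 0.926) did not pass. The labels used here give no hour of collection. Of the 9 regulators called, 8 kept the call without healthy replicate 1, 7 without healthy replicate 2, 4 without UUO replicate 1 and 6 without UUO replicate 2.

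Several protein folding genes fell. In the endoplasmic reticulum list 12 of 40 tested members fell and 4 rose (median log2 change -0.42), with 0 to 11 falling when 1 array was left out. Hspa5, the central chaperone BiP, had levels of 5.32 and 5.44 in healthy and 4.61 and 4.90 in UUO kidneys (log2 change -0.63 ± 0.15 (SE), adjusted p = 0.0267), and Hsp90b1 (-0.55), Dnajb11 (-0.85), Dnajc3 (-0.96) and Edem1 (-1.25) fell. Asns, which makes asparagine and is induced by amino acid lack, had levels of 0.03 and -1.14 in healthy and 1.88 and 2.36 in UUO kidneys and rose (log2 change 2.67 ± 0.41 (SE), adjusted p = 0.00692), with Trib3 (2.10), Ddit4 (1.87) and the sensor kinase Eif2ak3 (0.53). Of the cytosolic heat shock genes, 10 of 38 tested members fell and 2 rose (median log2 change -0.30, and with 1 array left out 0 to 9 fell and 0 to 2 rose). Hspa1a (-1.72), Hsph1 (-1.63) and Dnaja1 (-0.98) fell, and the small heat shock protein Hspb1 had levels of 3.91 and 3.03 in healthy and 5.77 and 6.12 in UUO kidneys and rose (log2 change 2.47 ± 0.40 (SE), adjusted p = 0.00833).

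In the proteasome list 5 of 40 tested members rose and 3 fell (median log2 change -0.23, and with 1 array left out 1 to 5 rose and 0 to 1 fell), and all 5 that rose, Psmb8 (1.84), Psmb9 (1.71), Psmb10 (2.02), Psme1 (0.82) and Psme2 (0.83), are interferon-induced subunits or activators. The constitutive Psmd12 (-0.48), Psmc6 (-0.55) and Psmd2 (-0.41) fell slightly. Of the lysosome and autophagy genes, 8 of 48 tested members rose and 4 fell (median log2 change -0.05, and with 1 array left out 4 to 8 rose and 1 to 3 fell): the proteases of phagocytes Ctss (3.06), Ctsk (2.36) and Ctsc (1.95) rose and Lipa (-1.23) fell. In the list of mitochondrial upkeep 17 of 49 tested members fell and 1 rose (median log2 change -0.54, and with 1 array left out 0 to 15 fell and 0 rose), including the fusion genes Mfn1 (-0.92), Mfn2 (-0.84) and Opa1 (-0.84) and the mitophagy kinase Pink1 (-1.05), and with Ucp2 (0.98) up. Cytosolic ribosomal proteins had small changes. In their list 12 of 69 tested members rose and 0 fell (median log2 change 0.25, and with 1 array left out 0 to 11 rose and 0 fell), with the largest rise in Rpl12 (0.75). With each array scaled to its median in place of its 75th percentile, the median over all genes moved to -0.21 and 1 ribosomal protein rose, while quantile normalization of the arrays gave 41 that rose. Median scaling raised the falls of the mitochondrial list from 17 to 33, those of the proteasome list from 3 to 16 and those of the heat shock list from 10 to 16, and quantile normalization gave 10, 1 and 10 falls. Small changes in these lists therefore depended on the scaling. Of the 31 genes called in protein upkeep, 24 kept the call without healthy replicate 1, 22 without healthy replicate 2, 7 without UUO replicate 1 and 16 without UUO replicate 2.

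Some genes crossed the detection limit altogether. Of the 16602 tested genes with a symbol, 280 were called as rising from no healthy array well above background to both UUO arrays. Another 66 were called as falling from both healthy arrays to neither UUO array. Over all 23877 genes and transcripts, called or not, 573 and 197 lay in these 2 classes. The share of spots well above background was 69.1 and 65.3% on the healthy arrays and 71.4 and 67.7% on the UUO arrays. The largest bounds in the first class were those of Sprr2f, Il1f6, Lyz2, Cxcl17, Arhgap36, Cxcl5, Gpnmb and Sftpd, with the Sftpd bound given above the smallest of them. In the second they were those of Ces1g, Upp2, 2310081J21Rik, Tmem207, Alb, Vmn1r34, Vmn1r33 and Vmn1r6.

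A few genes gave different answers by probe. Of 4369 genes with several tested probes, 727 had 2 or more probes called. Among these 727, 8 had probes called in opposite directions: Kalrn, Lifr, Fsd1l, Mdn1, Prmt6, Sdad1, Wdfy1 and 4931440P22Rik. For Lifr, the receptor of leukemia inhibitory factor, a probe for 1 transcript rose by 0.76, another probe for the same transcript did not pass with 0.18, and a probe for a different transcript fell by 0.96 on the log2 scale. For Kalrn, an exchange factor of small GTPases, a probe for 1 transcript rose by 1.15 and the 2 probes for another transcript changed by -1.08 and -1.26. These genes are given without a single direction.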

How the data were processed

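RNA from kidney cortex of 9 samples was measured on 9 one-colour Agilent arrays, of which the 4 wild-type arrays are compared here. The deposited files hold scanner intensity values made with Agilent Feature Extraction, version 10.7.3.1 per the file headers and 10.5 per the submitters' processing notes. The processed intensity was already corrected for background by the authors' scanner software, and no other normalization is recorded in it. The authors also deposited a table of log2 values, whose column medians on the wild-type arrays lie between 7.02 and 7.04 and whose centring is not stated in the sources used here. That table served as an alternative.

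Spots marked as outliers and control spots were left out. Log2 of the processed intensity, minus the 75th percentile of the array, was averaged over spots of a probe. A probe stayed in when 2 or more arrays read it well above background, and the brightest probe stood for a gene. Array accessions were matched to RefSeq symbols (GRCm38.p6). limma 3.58.1 in R 4.3.3 fitted 4 group means to all 9 arrays, and genes with a Benjamini-Hochberg adjusted p under 0.05, over all genes tested, were called. This pipeline was tested on simulated data. The genes and lists were chosen with earlier results of these data known. Named genes were the 20 largest rises and falls outside the standard markers that did not overlap between groups and were well above background on both arrays of the higher group, and a few members of each list, with known regulators added. The number of arrays limits the precision. Alternatives covered scaling, background, filters, probes, arrays left out, slide, replicate number and threshold. A few list members are counted in the lists but not reported here by name.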

Additional observations from a re-analysis of the deposited data

How the results depend on the processing

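Of 25 alternatives, none turned a called gene to the opposite call, and none of the 324 called genes named above changed sign. Many of the 25 could not have done so. Those that changed only the threshold, the estimate of the spread, the slide block or the Notch3-/- arrays kept the wild-type group means. Only the alternatives in scaling, background, filters, probes, outlier spots, replicate block or wild-type arrays could turn a sign. The reported count was 6178 genes, 3372 that rose and 2806 that fell. Leaving out 1 of the 9 arrays at a time gave 1285 to 7449 genes, 1050 to 3876 that rose and 235 to 3573 that fell. The lowest counts came without UUO replicate 1, and 2204 genes were called without UUO replicate 2, with 1557 that rose and 647 that fell. With only the 4 wild-type arrays the count was 3498 (2144 rose, 1354 fell), and with the slide as a random block 2397 (1699 and 698). An adjusted p under 0.01 left 1676 (1293 and 383), and requiring at least a 2-fold change left 3974, of which 1506 fell. Scaling each array to its median gave 5031 falls, so that 33.1% of calls rose in place of 54.6%, while the median of all genes moved from 0.04 to -0.21. The groups share replicate numbers, but the labels do not tie them to animals and the deviations of same-numbered wild-type arrays correlated at 0.0967 over genes. With the replicate number as a block, 5764 genes were called, 3220 that rose and 2544 that fell. Of the 324 named genes called, 199 kept the call with the slide as a block. Over all 6178 genes called, 1699 rises and 698 falls kept it. The named genes were chosen partly by the size of their change or their adjusted p, so their tallies do not stand for all called genes. The cause of these shifts was not tested, although each fit without an array also has fewer samples. Signals near background limit the genes given as "at least" folds.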

Other observations

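Families were also taken by the stem of the gene symbol after the values were seen, and some that held many calls are described here. Others did not. Of the zinc finger proteins 10.6% rose, of the Rab GTPases 11.9%, of the potassium channels 10.1% and of the olfactory receptors 5.37%. Of the kinesins, the motors that move along microtubules, 14 of 41 tested genes rose and 2 fell, against 14.1% and 11.8% of all genes. The mitotic motors Kif4 (log2 change 4.76), Kif11 (3.34), Kif22 (3.24), Kif18b (3.03) and Kif20a (2.85) were the larger rises, with the neuronal motor Kif1a (3.44), while Kifc2 (-1.07) and Kif21a (-1.22) fell. Fewer kinesins rose without UUO replicate 1 (7) or UUO replicate 2 (8), and with each array scaled to its median 11 rose and 8 fell. Of the ADAM and ADAMTS proteases, which shed cell surface proteins or cut matrix proteins, 14 of 39 tested genes rose and 1 fell, against the same shares of all genes (14.1% and 11.8%). Adam8 (3.84) and the aggrecan-cutting Adamts4 (3.71) were among the larger rises, with Adam19 (2.80) and Adamts2 (2.80), an enzyme that trims procollagen, and Adam9 (-0.52) fell. Without UUO replicate 1, 4 of these proteases rose, and 6 without UUO replicate 2. None of 23877 genes differed between the genotypes in the response to obstruction at an adjusted p under 0.05 in limma, where the smallest adjusted p was 0.242, and 1704 did so at an unadjusted p under 0.05.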
